A study of Mus musculus with 21 samples.

Results

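The genes described here are the chemokine receptor gene Cxcr2, 4 of its ligand genes (Cxcl1, Cxcl2, Cxcl3 and Cxcl5), the G-CSF receptor gene Csf3r and 3 genes of neutrophil products (S100a8, Lcn2 and Camp). They were picked by symbol, make up 9 of the 750 genes on a NanoString panel, and all 9 passed the filter on low values along with 689 genes in all. The panel was read in 21 whole tumors grown in the flank of male C57BL/6 mice from LLC cells (Lewis lung carcinoma, a line derived from a mouse lung tumor); GEO's tissue label reads lung. Of these, 8 came from wild-type hosts injected in the tumor with a STING agonist (named as cGAMP in the series description). Another 4 came from STING-deficient hosts homozygous for the goldenticket allele of Tmem173 and injected with PBS (sham), and 9 from wild-type hosts injected with PBS. The deficiency lies in the host, and the implanted tumor cells keep their own Tmem173. The sources used here do not give dose, time of sampling, age or whether each tumor came from a separate mouse, and p-values therefore reflect only how far these tumors scatter, which may be technical. No agonist-treated tumors of STING-deficient hosts were analysed here.

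Neutrophils are short-lived granulocytes that leave the blood along gradients of CXC chemokines. CXCR2 is the receptor through which mouse neutrophils sense CXCL1, CXCL2, CXCL3 and CXCL5, which macrophages, epithelial cells, fibroblasts and tumor cells can make, often downstream of NF-kB. G-CSF acts through CSF3R to drive the production and release of neutrophils from bone marrow. S100A8, lipocalin 2 and the cathelicidin encoded by Camp are proteins that neutrophils store and release, although macrophages and epithelial cells can also express S100a8 and Lcn2. In RNA of a whole tumor, fewer cells of a type and less RNA per cell cannot be told apart.

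The 4 ligand genes lie together on mouse chromosome 5, within 147 kb of the GRCm38.p6 assembly. Cxcl5 spans chr5:90759298-90761625, Cxcl3 chr5:90786101-90788093, Cxcl1 chr5:90891245-90893121 and Cxcl2 chr5:90903899-90905938. Cxcr2 lies on chromosome 1, Lcn2 on chromosome 2, S100a8 on chromosome 3, Csf3r on chromosome 4 and Camp on chromosome 9. RefSeq promoter windows, each of 300 bases, were matched for 8 of the 9 genes, Cxcl5 being the other. A form of the kB site bound by NF-kB (GGG, any 3 bases, then TTCC) was looked for on both strands and occurred in 4 of the 8 windows (Cxcl1, Cxcl2, Cxcl3 and Csf3r), against 5.56% of all 32851 windows. The last 100 bases before the annotated start of the 3 ligand genes are shown, on the plus strand and 5′ to 3′, because these genes varied most among the 9 across libraries. Capitals mark the matches, which run together where a match on one strand overlaps a match on the other. The regions are chr5:90891145-90891244 for Cxcl1, chr5:90903799-90903898 for Cxcl2 and chr5:90786001-90786100 for Cxcl3.
Cxcl1: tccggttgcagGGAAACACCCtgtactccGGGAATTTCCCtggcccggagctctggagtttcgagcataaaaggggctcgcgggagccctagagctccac
Cxcl2: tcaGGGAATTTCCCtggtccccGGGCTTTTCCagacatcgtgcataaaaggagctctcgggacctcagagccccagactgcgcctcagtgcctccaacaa
Cxcl3: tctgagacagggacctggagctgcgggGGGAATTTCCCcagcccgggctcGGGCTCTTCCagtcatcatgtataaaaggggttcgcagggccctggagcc
All 3 stretches hold GGGAATTTCC, starting 71 bases before the start in Cxcl1, 97 in Cxcl2 and 73 in Cxcl3. The C/EBP letters TTGCNNAA occurred in the Lcn2 window alone (1 of 8, against 10.8% of all windows). An interferon response form (TTTC, any 2 bases, then TTTC) occurred in 0 of 8, against 3.44% of all windows. A match describes these letters and does not show binding.

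Values are the authors' normalized signal per probe on a linear scale, and they were whole multiples of a step in each library, which corresponds to between 256573 and 763976 counts per library if 1 step is 1 count. Probes capture their targets unequally, and levels of different genes are not compared. The whole panel sat higher in agonist tumors: the median of the tested probes lay between 75.5 and 250 per library in agonist tumors (median 175), between 47.4 and 73.7 in STING-deficient sham tumors (median 58.2) and between 70.4 and 87.5 in wild-type sham tumors (median 75.8). For that reason the median difference of all tested probes is given with each comparison, and differences are also given after scaling by trimmed mean of M values (TMM), which brings the libraries to a common level over most probes. Agonist replicates 6, 7 and 8 are the only libraries deposited with 2 decimals, and agonist replicate 2 held the highest value of its group for 7 of the 9 genes.

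**Figure D1:**
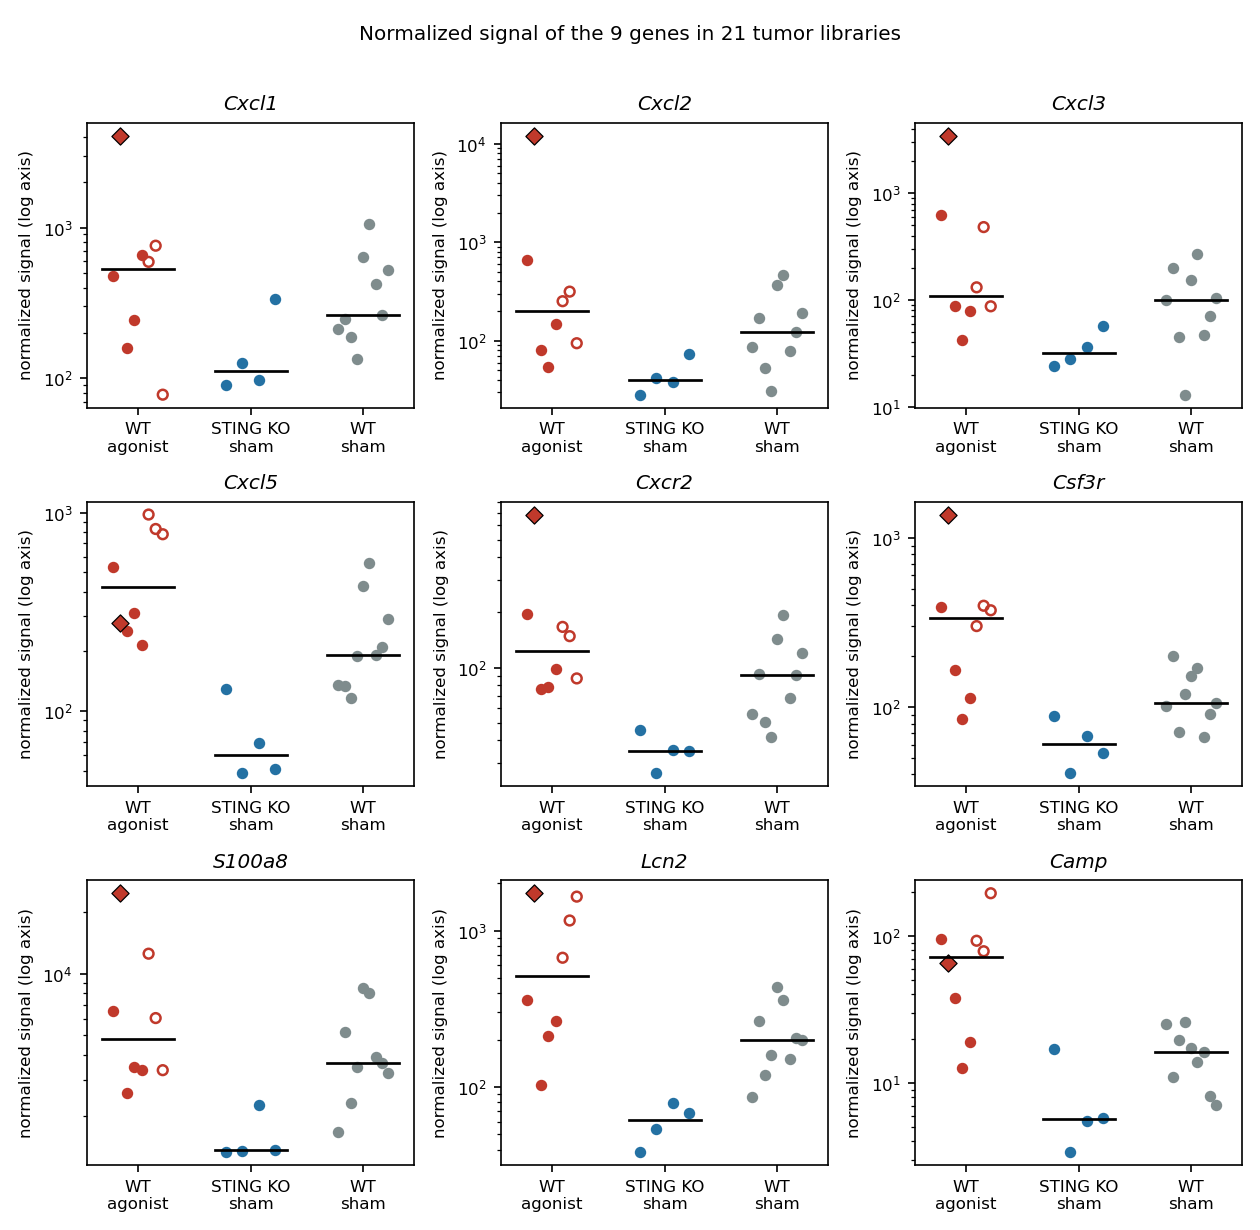
Normalized signal (log axis) of each gene in every library, with wild-type agonist tumors on the left (red), STING-deficient sham tumors in the middle (blue) and wild-type sham tumors on the right (gray); lines are medians, the diamond is agonist replicate 2 and open circles are agonist replicates 6, 7 and 8. On this scaling Lcn2 is the gene whose 4 values in STING-deficient tumors all lie below the 9 wild-type sham values, and Cxcl2 reaches 12040 in agonist replicate 2.

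Cxcl5, Csf3r and Lcn2 were higher in agonist-treated tumors of wild-type hosts on the authors' scaling, and none of these 3 passed the test after TMM scaling. Camp passed on both, but it met the filter on low values only through the agonist tumors, where it was high. Cxcl1, Cxcl2, Cxcl3, Cxcr2 and S100a8 did not pass on either scaling. All 9 genes had a positive difference against wild-type sham tumors, with a median of 1.16 on the log2 scale, close to the 0.98 of all 689 tested probes. The 4 of 9 called higher (limma, adjusted p under 0.05) compare with 71.1% of all tested probes. After TMM scaling 1 of 9 was higher, against 9.87% of all probes (27% of all probes changed in either direction). Without agonist replicates 6, 7 and 8 the count was 0 of 9 (limma, 2 at an unadjusted p under 0.05), against 0.435% of all probes.

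Among the ligands, Cxcl2, a chemokine that activated macrophages and neutrophils release, ranged from 54.2 to 12040 (median 200) in the 8 agonist tumors, against 30.6 to 460 (median 123) in the 9 wild-type sham tumors. Agonist replicates 1 and 2 lay above every sham tumor at 655 and 12040, and the other 6 fell within the sham range. The difference of 1.16 ± 0.79 on the log2 scale (SE) had an adjusted p of 0.185, and stood at 0.39 without agonist replicate 2 and at 0.28 after TMM scaling. Cxcl3, a close relative, ranged from 42.6 to 3443 (median 110) in agonist tumors, against 12.97 to 267 (median 101) in wild-type sham tumors. Agonist replicates 1, 2 and 7 lay above the highest sham value, and 4 of 8 were below the sham median. Its difference was 1.33 ± 0.71 (adjusted p = 0.0948), against 0.75 without agonist replicate 2 and 0.45 after TMM scaling. Cxcl1, the mouse chemokine KC, ranged from 77.9 to 4058 (median 534) in agonist tumors, against 134 to 1051 (median 263) in wild-type sham tumors. Agonist replicate 2 was the only one above the sham range and agonist replicate 8 the only one below it. The difference was 0.44 ± 0.58 (adjusted p = 0.505), and -0.016 without agonist replicate 2. After TMM scaling it was -0.45.

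Cxcl5, a ligand also known as LIX, ranged from 214 to 977 (median 422) in agonist tumors, against 117 to 557 (median 193) in wild-type sham tumors. The 3 agonist tumors above the sham range were replicates 6, 7 and 8, at 977, 827 and 778, and none was below the sham median. Cxcl5 rose by 1.03 ± 0.36 (adjusted p = 0.0175), and 7 of 8 agonist tumors were above the sham mean. In agonist replicate 2, where the other 3 ligands peaked, Cxcl5 was 278, or 1.11-fold the sham mean. Without agonist replicates 6, 7 and 8 the difference was 0.46 (adjusted p = 0.277), and after TMM scaling 0.14 (adjusted p = 0.743).

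Of the receptors, Csf3r ranged from 85.2 to 1372 (median 337) in agonist tumors, against 66.9 to 201 (median 106) in wild-type sham tumors. Agonist replicates 1, 2, 6, 7 and 8 lay above every sham tumor, while replicates 3, 4 and 5 did not. Csf3r rose by 1.31 ± 0.41 (adjusted p = 0.00914), with 6 of 8 agonist tumors above the sham mean. The difference was 0.43 after TMM scaling (adjusted p = 0.295) and 1.11 without agonist replicates 6, 7 and 8 (adjusted p = 0.0875). Cxcr2 ranged from 76.4 to 686 (median 123) in agonist tumors, against 41.7 to 194 (median 91.4) in wild-type sham tumors. Only agonist replicates 1 and 2 exceeded the sham range, the first barely, at 195. The difference of 0.74 ± 0.38 did not pass (adjusted p = 0.0826), and stood at 0.42 without agonist replicate 2 and at -0.13 after TMM scaling.

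The granule genes differed in how far they moved. Camp, which encodes the antimicrobial cathelicidin, ranged from 12.6 to 195 (median 71.9) in agonist tumors, against 7.04 to 25.9 (median 16.3) in wild-type sham tumors. Of the 8 agonist tumors 6 lay above the highest sham value, the exceptions being replicates 4 and 5. Camp rose by 1.83 ± 0.45 (adjusted p = 0.00309), and after TMM scaling by 0.97 (adjusted p = 0.0238), the only one of the 9 genes past the threshold there. Without agonist replicates 6, 7 and 8 it was 1.22 (adjusted p = 0.0618). Camp reached a value of 20 in 6 agonist, 0 STING-deficient and 2 wild-type sham tumors, so that it entered the test only through the group where it was high. Its wild-type sham values rest on 8 to 39 such counts per library.

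Lcn2, the iron-siderophore binding protein lipocalin 2, ranged from 104 to 1729 (median 515) in agonist tumors, against 86.5 to 433 (median 200) in wild-type sham tumors. Agonist replicates 2, 6, 7 and 8 exceeded the sham range. Lcn2 rose by 1.38 ± 0.48 (adjusted p = 0.0167) with 6 of 8 agonist tumors above the sham mean, but stood at 0.49 after TMM scaling (adjusted p = 0.354) and at 0.72 without agonist replicates 6, 7 and 8 (adjusted p = 0.226). S100a8, a subunit of calprotectin, ranged from 2599 to 24799 (median 4755) in agonist tumors, against 1665 to 8490 (median 3628) in wild-type sham tumors. Agonist replicates 2 and 6 were above the sham range and 4 of 8 below the sham median. Its difference was 0.56 ± 0.40 (adjusted p = 0.201), below that of the median probe. It was 0.26 without agonist replicate 2 and -0.32 after TMM scaling.

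**Figure D2:**
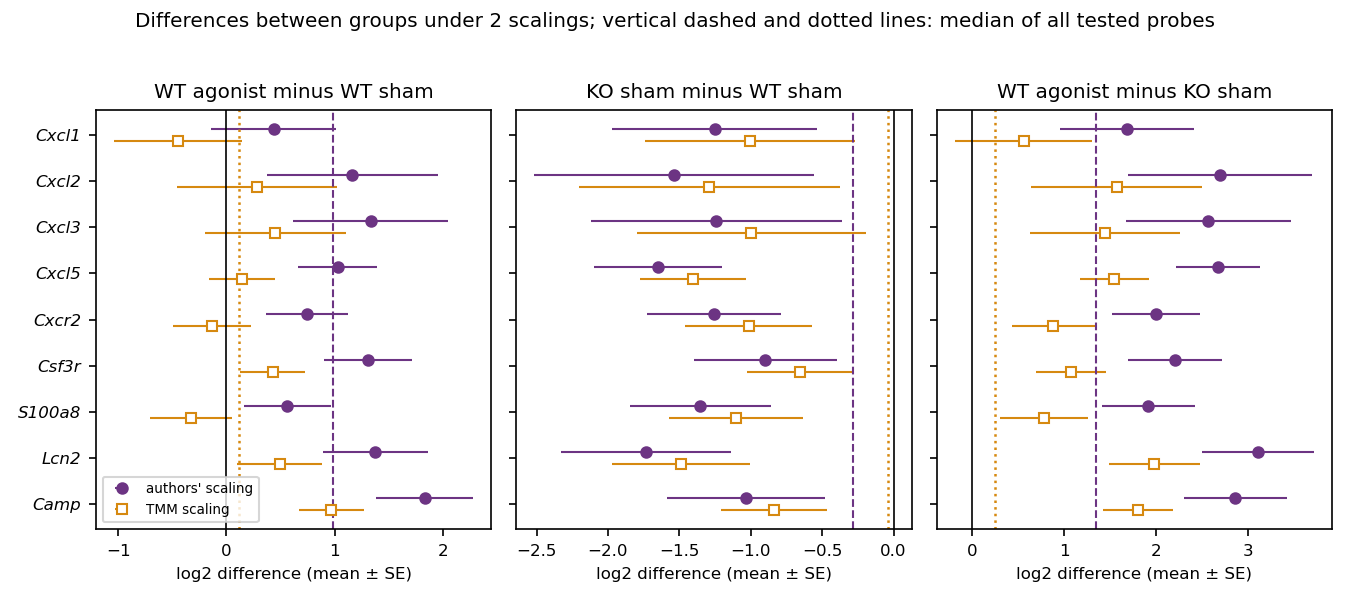
Log2 difference with its standard error for each gene in the 3 comparisons, under the authors' scaling (filled circles) and TMM scaling (open squares); the dashed and dotted vertical lines are the medians of all 689 tested probes under each scaling. In the comparison of STING-deficient with wild-type sham tumors all 9 genes lie left of both lines, and after agonist 3 genes change sign with TMM.

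The agonist tumors differed among themselves. Replicate 2 exceeded the sham range in 8 of the 9 genes, replicates 1, 6 and 7 in 5 each, replicate 8 in 4, replicate 3 in 1 (Camp), and replicates 4 and 5 in 0. After TMM scaling replicate 2 still exceeded it in 8, while replicates 7 and 8 did in 2 (Lcn2 and Camp), replicates 1, 3 and 6 in 1 (Camp), and replicates 4 and 5 in 0. Cxcl5 then exceeded the sham range in 0 and Csf3r in 1 agonist tumor. The share of all probes above the sham range was not counted per library, so these counts are not read as particular to the 9 genes. On the authors' scaling the panel median was 197, 172, 113, 75.5, 89.6, 177, 187 and 250 in agonist replicates 1 to 8. It was 70.4 to 87.5 in wild-type sham tumors. In replicate 2 Cxcl2 was 69.6-fold, Cxcl3 30.9-fold, Csf3r 11.4-fold, Cxcl1 9.94-fold, Lcn2 7.85-fold, Cxcr2 7.21-fold and S100a8 5.60-fold the wild-type sham mean. The mean of the other 7 agonist tumors was 1.32-fold the sham mean for Cxcl2 and 1.04-fold for Cxcl1. It was 1.28-fold for Cxcr2 and 1.22-fold for S100a8. For Camp it was 4.72-fold, for Lcn2 2.86-fold, for Cxcl5 2.22-fold, for Csf3r 2.17-fold and for Cxcl3 1.98-fold. These folds are on the authors' scaling, where the median tested probe was higher by 0.98 on the log2 scale over all 8 agonist tumors. Replicate 8 had the highest Camp of the series and the lowest Cxcl1, 195 and 77.9. The ratio of Cxcl2 to Cxcl5 within a library accordingly spanned 0.121 in agonist replicate 8 to 43.4 in agonist replicate 2, against 0.162 to 1.28 in wild-type sham tumors.

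**Figure D3:**
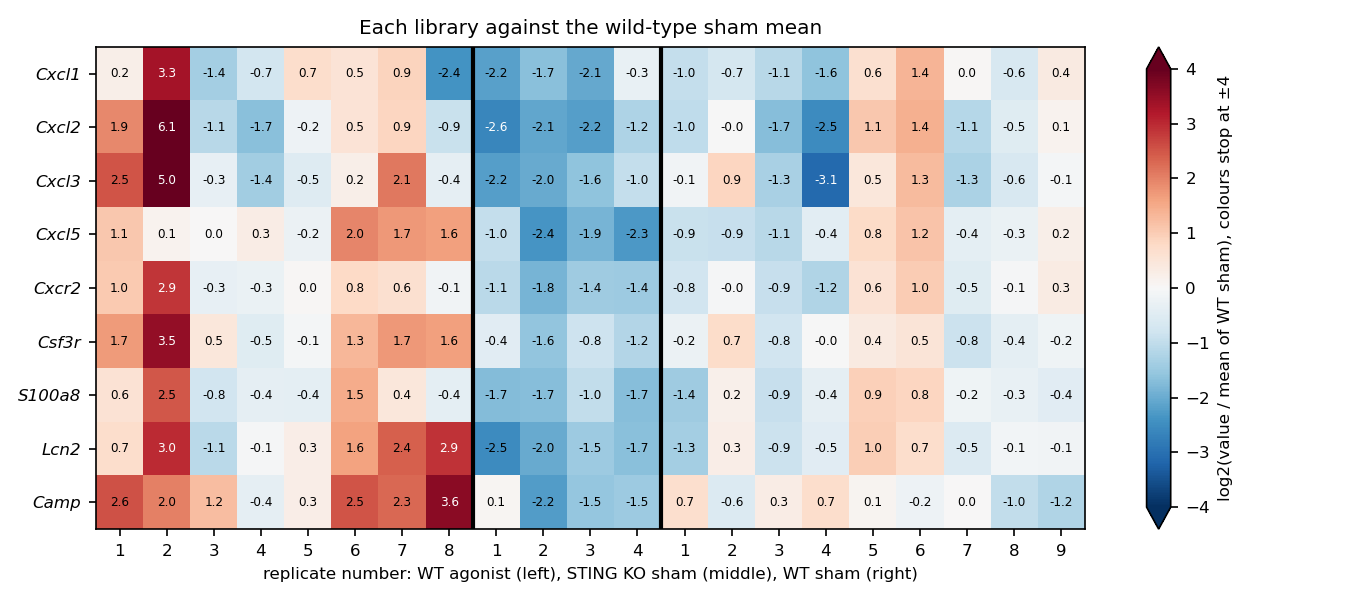
Log2 of each value over the wild-type sham mean of the gene, for the 8 agonist tumors (left), 4 STING-deficient sham tumors (middle) and 9 wild-type sham tumors (right); red is above and blue below that mean. On the authors' scaling agonist replicate 2 stands out in Cxcl1, Cxcl2 and Cxcl3 but not in Cxcl5, which is highest in agonist replicates 6, 7 and 8. Lcn2 is highest in agonist replicate 2, and Camp in agonist replicate 1 lies above replicates 6 and 7.

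Host STING deficiency under sham treatment went with lower values of all 9 genes, of which Cxcl5 passed the test. Every one of the 9 differences was negative, between -0.90 and -1.74, with a median of -1.26 against -0.28 for all tested probes, of which 82.7% were also below 0. The 1 of 9 called lower compares with 2.76% of all probes, and with 1 of 9 and 3.34% after TMM scaling, where the median of the 9 genes was -1.01 and that of all probes -0.04. Without agonist replicates 6, 7 and 8, which enter through the shared spread, it was 1 of 9 and 3.19%. When the agonist tumors, whose values spread more widely, were left out of the fit, 4 of 9 were lower (Cxcl5, Lcn2, S100a8 and Cxcr2), as were 80 of 689 probes. With 4 tumors in the STING-deficient group the precision is low, and this comparison shares its wild-type sham tumors with the agonist comparison.

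Cxcl5 was 129, 48.7, 69.5 and 51.4 in the 4 STING-deficient tumors, against 117 to 557 (median 193) in the 9 wild-type sham tumors. Of the 4 values 3 lay below the lowest sham value, and replicate 1 lay just inside the range. In log2 units Cxcl5 fell by 1.65, with a standard error of 0.45 (adjusted p = 0.0496), and after TMM scaling by 1.40 (adjusted p = 0.0369). The call sits at the threshold: leaving out 1 library at a time gave -1.95 to -1.48 and adjusted p between 0.0254 and 0.333, past the threshold in 8 of 21 cases.

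Lcn2 was 38.6, 54.1, 79.7 and 68.8 in STING-deficient tumors, against 86.5 to 433 (median 200) in wild-type sham tumors. It was the only one of the 9 genes whose 2 groups did not overlap, which held in this direction for 5.66% of all tested probes. After TMM scaling 3 of its 4 values lay below the sham range, and 0 of the 9 genes separated the groups, against 3.34% of all probes. Its difference of -1.74 ± 0.60 (-1.49 after TMM scaling) was the largest of the 9 and did not pass (adjusted p = 0.208), but did without the agonist tumors in the fit (adjusted p = 0.00797). S100a8 was 1328, 1350, 2254 and 1359 in STING-deficient tumors, against 1665 to 8490 (median 3628) in wild-type sham tumors. All 4 were below the sham median and 3 below the sham range, with a difference of -1.35 ± 0.49 (adjusted p = 0.279, and 0.0302 without the agonist tumors in the fit), and of -1.10 after TMM scaling. Camp was 17.1, 3.38, 5.53 and 5.81, against 7.04 to 25.9 (median 16.3) in wild-type sham tumors. Replicate 1 lay just above the sham median and the other 3 below the range, at 5 to 7 counts each, and the difference of -1.03 ± 0.55 (-0.84 after TMM scaling) had an adjusted p of 0.62.

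Cxcr2 was 45.4, 26.4, 35.5 and 34.8 in STING-deficient tumors, against 41.7 to 194 (median 91.4) in wild-type sham tumors. Again 3 of 4 lay below the sham range (1 of 4 after TMM scaling), with a difference of -1.26 ± 0.47 (adjusted p = 0.297, and 0.0336 without the agonist tumors in the fit), and of -1.01 after TMM scaling. Csf3r was 88.2, 40.6, 67.1 and 53.9, against 66.9 to 201 (median 106) in wild-type sham tumors. The groups overlapped more than for Cxcr2, and the difference was -0.90 ± 0.50 (adjusted p = 0.62), and -0.65 after TMM scaling. The remaining ligands overlapped with sham as well. Cxcl2 was 28.3, 41.3, 37.9 and 73.8, against 30.6 to 460 (median 123) in wild-type sham tumors. Cxcl3 was 24.0, 27.7, 36.3 and 57.2, against 12.97 to 267 (median 101) in wild-type sham tumors. Cxcl1 was 90.8, 127, 97.9 and 334, against 134 to 1051 (median 263) in wild-type sham tumors. For these 3 ligands 11 of the 12 values of STING-deficient tumors lay below the sham median, the exception being Cxcl1 in replicate 4. Their differences of -1.54 ± 0.98, -1.24 ± 0.88 and -1.25 ± 0.72 had adjusted p-values of 0.646, 0.664 and 0.62. After TMM scaling they were -1.29 for Cxcl2, -0.998 for Cxcl3 and -1.0 for Cxcl1.

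Agonist-treated wild-type tumors against sham-treated STING-deficient tumors is the comparison that the series description names, and in it treatment and host genotype cannot be told apart. All 9 genes were higher in agonist tumors, against 73.6% of all tested probes (74.2% changed in either direction), by a median of 2.57 against 1.35 for all probes. After TMM scaling 4 of 9 were higher, against 19.3% of all probes: Camp by 1.81, Lcn2 by 1.98, Cxcl5 by 1.55 and Csf3r by 1.08. Among them Camp, at a value of 20 or more in 0 of the 4 STING-deficient tumors, again entered the test only through the agonist tumors. The groups did not overlap for 4 of 9 genes (Cxcl5, Cxcr2, S100a8 and Lcn2), as for 16.5% of all probes. After TMM scaling they did not overlap for 2 of 9 (Cxcl5 and Csf3r), against 4.64% of all probes. Cxcl5 showed the smallest adjusted p, with 214 to 977 in agonist tumors against 48.7 to 129 in STING-deficient tumors and a difference of 2.68 ± 0.46 (adjusted p = 0.00019). Lcn2 had the largest difference, 3.11 ± 0.61 (adjusted p = 0.000436). Csf3r, Cxcr2, S100a8 and Camp rose by 2.21, 2.0, 1.92 and 2.86 (adjusted p from 0.000463 to 0.00312). Cxcl2, Cxcl3 and Cxcl1 rose by 2.70 ± 1.0, 2.57 ± 0.90 and 1.69 ± 0.73 (adjusted p = 0.0207, 0.0154 and 0.0424). Without agonist replicate 2 Cxcl1 stood at 1.24 (adjusted p = 0.0694), and its call was lost in 8 of 21 such omissions. Without STING-deficient replicate 1 Cxcl2 had an adjusted p of 0.0527. Without agonist replicates 6, 7 and 8 all 9 genes were still called, against 53.8% of all probes.

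Other neutrophil genes of the panel gave the setting. Of 22 tested genes of neutrophil growth and recruitment 14 had risen in agonist tumors relative to wild-type sham tumors, against 71.1% of all tested probes. After TMM scaling 1 was higher and 1 lower, against 9.87% and 17.1% of all probes. On the authors' scaling the median of the 22 was 1.16, against 0.98 for all probes. The 14 included Csf2rb, the shared beta chain of the GM-CSF receptor, at 1.48 ± 0.33 (adjusted p = 0.00276), and Fpr2, a formyl peptide receptor, at 1.44 ± 0.39 (adjusted p = 0.00486). Of 21 tested granule and effector genes 16 were higher, with a median of 1.02, both near the values of the whole panel. After TMM scaling 1 was higher, against 9.87% of all probes. Among the 21, Elane and Mpo stayed below the filter minimum of 20 in both sham groups. They entered the test only through the agonist tumors, where they were higher. Fcgr4, an Fc receptor of neutrophils and monocytes, rose by 1.36 ± 0.32 (adjusted p = 0.00295), and Cybb, a subunit of the phagocyte NADPH oxidase, by 1.41 ± 0.34 (adjusted p = 0.00299). Between STING-deficient and wild-type sham tumors 0 of 22 and 0 of 21 passed by limma (4 and 5 at an unadjusted p under 0.05). Of all tested probes 2.76% passed, and 64 of 689 had an unadjusted p under 0.05. Differences were below 0 for 21 and 19, with medians of -0.78 and -0.43, against 82.7% and -0.28 for all probes. After TMM scaling 0 of 22 and 1 of 21 were called lower, against 3.34% of all probes. Then 20 and 14 were below 0, with medians of -0.59 and -0.18, against 55.6% and -0.04 for all probes. The lowest adjusted p among recruitment genes was that of Il1r2, a decoy receptor for interleukin 1 (-1.12 ± 0.42, adjusted p = 0.297). Among effector genes it was that of Chil3 (-0.98 ± 0.32, adjusted p = 0.167). Csf3, which encodes G-CSF itself, was 16.2 ± 5.35 (SD, n = 4) in STING-deficient tumors and 44.7 ± 26.5 (n = 9) in wild-type sham tumors, with a difference of -1.27 ± 0.60 (adjusted p = 0.511). In agonist against STING-deficient sham tumors 21 of 22 and 17 of 21 were higher, against 73.6% of all probes. After TMM scaling 3 of 22 were higher, and of the 21 effector genes 3 were higher and 1 lower, against 19.3% of all probes in each direction.

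Markers of other cells moved in the same libraries, and their part in these results was not tested. The neutrophil list held 9 measured genes, 4 of them among the genes described here. Of its defining granule genes, Elane (neutrophil elastase) had medians of 18.3 in agonist, 4.60 in STING-deficient sham and 8.87 in wild-type sham tumors. Mpo (myeloperoxidase) had medians of 26.3, 7.01 and 9.26 in the same order. Ltf had medians of 15.8, 4.94 and 10.5. The medians of Elane, Mpo and Ltf lie below or near the minimum of 20 used for the filter. Elane and Mpo reached at most 15.1 and 19.2 in wild-type sham tumors, and 9.95 each in STING-deficient tumors. Both therefore entered the test only through the agonist tumors. Among list genes not described above, Itgam and Mmp9 had higher values and followed this order only in part. Itgam had medians of 484, 185 and 180 in the same order, so its median did not fall under deficiency. Mmp9 had medians of 284, 220 and 281, with little difference between agonist and wild-type sham tumors. The 11 macrophage and monocyte markers summed to 8826 to 63200 in agonist, 12340 to 19208 in STING-deficient sham and 9455 to 16199 in wild-type sham tumors. Their median difference was 0.87 after agonist, with 7 of 11 higher, against 71.1% of all probes. After TMM scaling it was -0.020, with 0 of 11 higher and 2 lower, against 9.87% and 17.1% of all probes. Under deficiency it was -0.09, with 0 of 11 called (1 at an unadjusted p under 0.05). Of all probes 2.76% were called there, and 64 of 689 had an unadjusted p under 0.05. The neutrophil list had a median of -0.90, which is the value of Csf3r, one of the genes described here. That median is therefore not separate evidence beside them. The 6 fibroblast and pericyte markers summed to 8131 to 203875 in agonist tumors, highest in replicate 8, to 11441 to 29668 in STING-deficient sham and to 12380 to 31392 in wild-type sham tumors. Epithelial markers (4) had a median difference of 0.96 after agonist and -0.24 under deficiency, and endothelial markers (7) of 1.08 and -0.56. The T cell and B cell lists had medians of 1.53 and 1.47 after agonist and of -0.46 and -0.17 under deficiency. Ptprc, carried by all leukocytes, was at 322 to 3223 in agonist, 137 to 410 in STING-deficient sham and 234 to 465 in wild-type sham tumors.

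Within a group the genes varied together in part. Values were centred on the panel median of each library, and all 36 pairs were correlated in the 8 agonist and the 9 wild-type sham tumors (72 relations, exact permutation tests, two-sided, Benjamini-Hochberg adjusted). By Pearson's r 9 pairs passed in agonist and 14 in wild-type sham tumors, and by Spearman's rho 1 and 9. In agonist tumors Cxcl2 and Cxcl3 were the pair that passed by both (r = 0.96, exact permutation p = 0.000198, adjusted p = 0.00476; rho = 0.93, exact permutation p = 0.00223, adjusted p = 0.0321), and r was 0.81 without the 2 tumors farthest from the median. Other agonist pairs weakened without the 2 farthest tumors: Cxcl2 with S100a8 had r = 0.82 (exact permutation p = 0.0142, adjusted p = 0.049; rho = 0.57, exact permutation p = 0.151, adjusted p = 0.265) and r = 0.07 without the 2 farthest tumors.

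In wild-type sham tumors, where replicate 6 held the highest value of 5 of the 9 genes, Cxcr2 tracked its ligand Cxcl2 (r = 0.97, exact permutation p = 6.34e-05, adjusted p = 0.00317; rho = 0.97, exact permutation p = 0.000165, adjusted p = 0.0119), with r = 0.93 without the 2 farthest tumors. S100a8 and Lcn2 did so as well (r = 0.97, exact permutation p = 8.82e-05, adjusted p = 0.00317; rho = 0.93, exact permutation p = 0.00075, adjusted p = 0.018), with r = 0.92 without the 2 farthest. In agonist tumors the same S100a8 and Lcn2 pair had r = 0.37 (exact permutation p = 0.366, adjusted p = 0.439; rho = 0.24, exact permutation p = 0.582, adjusted p = 0.676). The ratio of Lcn2 to S100a8 was 0.0399 to 0.491 in agonist tumors, against 0.0388 to 0.0612 in wild-type sham tumors, and was highest in agonist replicate 8. Whether these correlations differ between the groups was not tested. Camp had a negative r with each of the other 8 genes in wild-type sham tumors, none of which passed.

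**Figure D4:**
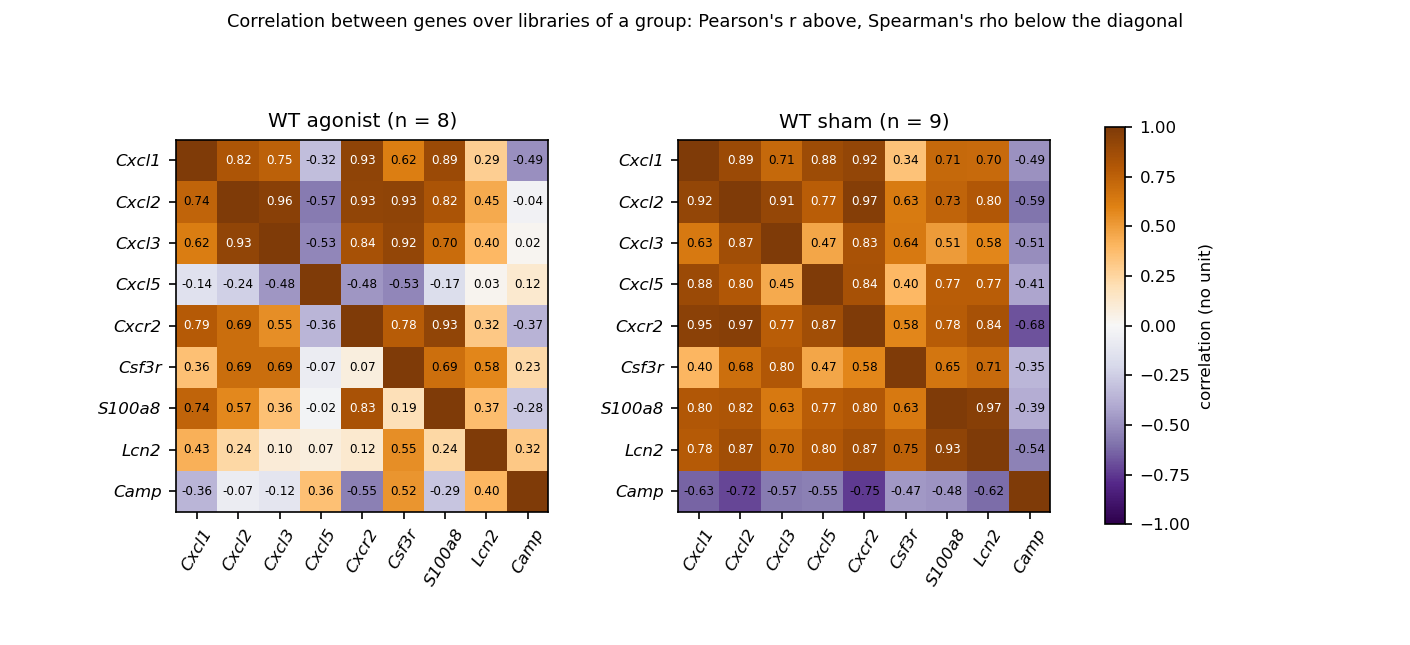
Correlation between the 9 genes over the 8 agonist tumors (left) and the 9 wild-type sham tumors (right), on log2 values centred on the panel median of each library, with Pearson's r above and Spearman's rho below the diagonal. Cxcl1, Cxcl2, Cxcl3 and Cxcr2 have positive r with each other in both groups, and in wild-type sham tumors Cxcl5 has r = 0.88 with Cxcl1 but 0.47 with Cxcl3, which did not pass.

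The tested probes most like each gene were sought as the smallest root mean square difference between centred log2 profiles over all 21 libraries, a description that also reflects levels shared between groups. Cxcl1 was nearest to Ptgs2 (the inducible cyclooxygenase, 0.377) and Csf3 (0.456), against its own spread of 1.29. Cxcl2 and Cxcl3 were both nearest to the chemokine Ccl28, at 0.359 and 0.454. These distances include agonist replicate 2, where Cxcl2 was 12040 against a next agonist value of 655. They were not computed without it. Csf3r was nearest to Tlr6 (0.252) and Il1r2 (0.403). S100a8 was nearest to Cxcr2 (0.431). Lcn2 was nearest to Il1r2 (0.648) and Fpr2 (0.681), and Cxcr2 to Tnfsf14 (0.389). Cxcl5 was nearest to Il13ra2 (0.581) and Camp to the granzyme gene Gzmb (0.414) and to Ctsw (0.419), an effector protease gene of cytotoxic lymphocytes. Their own spreads were 1.65 for Cxcl2, 1.45 for Cxcl3, 0.789 for Cxcl5 and 0.794 for Cxcr2. For Csf3r, S100a8, Lcn2 and Camp they were 0.689, 0.850, 1.04 and 0.824. Likeness was therefore weaker for some genes, such as Cxcl5, than for Cxcl1.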

How the data were processed

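Expression of 750 genes was measured on a NanoString panel, per the series description, in 21 tumor libraries. The authors deposited normalized signal values on a linear scale; the sources used here name no software, control probes or scaling set. The values of each library were whole multiples of a step, from 0.65 to 1.41, for 99.5% to 100% of probes within 0.1 of a step. Values in the single-library files differed from the matrix by at most 0.05. Of 9 accessions 9 matched the GRCm38.p6 gene table.

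Probes with a value of at least 20 in at least 4 libraries were tested (689). Log2(value + 1) was fitted with limma 3.58.1 (R 4.3.3) with a mean per group over all 21 libraries, eBayes with trend and robust, two-sided, with Benjamini-Hochberg adjustment over all tested probes at 0.05. Low genes' fold changes are thereby understated. TMM factors were computed from the tested probes. The fit was tested on simulated data drawn with the spread of wild-type sham tumors in every group. That test does not cover the wider spread or the higher panel level of agonist tumors. Correlations used exact permutation (scipy 1.17.1). Replicate numbers were not taken to pair libraries: correlations of same-numbered deviations were above 0.1 in 2 of 8, 2 of 4 and 1 of 4 pairs. They ranged from -0.20 to 0.29 (agonist and wild-type sham), -0.16 to 0.61 (STING-deficient and wild-type sham) and -0.08 to 0.19 (agonist and STING-deficient). A structure shared by some same-numbered libraries is therefore not excluded. A test on recovered counts was not run. If 1 step is taken as 1 count, no replicates agreed within sampling noise (chi-square per degree of freedom at least 6.76).

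The genes, lists, alternatives and motifs were chosen with earlier results of these data known. All 9 genes are named, and of the other neutrophil lists up to 4 genes with the smallest adjusted p per comparison, a part of which the text gives; a gene that this rule names is not reported here.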

Additional observations from a re-analysis of the deposited data

Results flagged for a closer look

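Dixon's ratio on the log2 scale was applied to 27 sets of values (9 genes in 3 groups), of which chance would mark about 1 in 20. It marked 3. Cxcl2 in agonist replicate 2 was 12040, the next agonist value being 655. Cxcr2 in the same tumor was 686, the next being 195. S100a8 in STING-deficient replicate 3 was 2254, the next being 1359.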

How the results depend on the processing

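Of the 9 genes, 4 were called in agonist against wild-type sham tumors; with TMM scaling the count was 1, and it was 0 without agonist replicates 6, 7 and 8, under that omission with TMM scaling and under that omission with the filter applied anew. Over all probes the count was 495, and 186, 3, 0 and 0 under those settings. In STING-deficient against wild-type sham tumors 1 gene was called, and 0 with a pseudocount of 10 or no filter, but 4 with only the 2 groups in the fit. Over all probes this was 19, against 11 with a pseudocount of 10 and 82 with 2 groups. In agonist against STING-deficient sham tumors 9 genes were called, 4 with TMM scaling and 3 with TMM scaling and without agonist replicates 6, 7 and 8. Over all probes this was 511, against 266, 174 and, with those replicates left out and the filter anew, 323. Leaving out 1 library at a time, the genes called numbered 4 to 6, 0 to 1 and 7 to 9 in the 3 comparisons, and the probes 435 to 544, 8 to 22 and 420 to 548.

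In agonist against wild-type sham tumors the sign turned with TMM scaling for Cxcl1 (-0.45), Cxcr2 (-0.13) and S100a8 (-0.32), and with TMM scaling and without agonist replicates 6, 7 and 8 for Cxcl5 (-0.16) and S100a8 (-0.14). Leaving out 1 library gave Cxcl1 -0.016 to 0.80. The pairs of genes correlated by r in agonist tumors numbered 9, and 14 on values not centred. Causes of these changes were not tested.

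The replicate numbers were not taken to pair the libraries. With the replicate block, 0 genes and 11 probes were called in STING-deficient against wild-type sham tumors. The Cxcl5 difference there was -1.09 (limma, adjusted p = 0.478). With the replicate block and TMM scaling 0 genes and 141 probes were called in agonist against wild-type sham tumors, 0 genes in STING-deficient against wild-type sham tumors, and 4 genes and 198 probes in agonist against STING-deficient sham tumors. Under that setting the agonist difference from wild-type sham tumors was -0.35 for Cxcl1, -0.061 for Cxcr2 and -0.34 for S100a8. The block with TMM scaling, and the filter applied anew, were chosen after seeing the data. Both planned count tests were not run, because whole counts could not be established in every library. Camp is limited by its low counts.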
